A study of Homo sapiens with 6 samples.

Results

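The p53 pathway was followed through 9 genes of 28491 in the deposited count table: MDM2 and MDM4, the regulators that hold p53 in check, and the p53 targets CDKN1A, BBC3, GDF15, SESN1, SESN2, BTG2 and FDXR. They were chosen by gene symbol, each symbol matched 1 row in both deposited tables, and all 9 passed the filter of edgeR on low counts, as did 16260 genes in all. HCT116, a human colorectal carcinoma line that carries wild-type p53, was transfected with a plasmid for the RBM47 transcript (RBM47-OE, 3 libraries) or with a control plasmid (NC, 3 libraries), and poly(A) RNA was sequenced 48 h later. RBM47 is an RNA-binding protein, and the comparison asks which transcripts change when its level is raised. The sample labels and the methods name different plasmid backbones, culture media and library kits. Nothing says whether the 3 libraries of a group came from separate cultures, so the p-values measure only the spread between these libraries. A large change in a few transfected cells and a small change in all cells cannot be told apart in RNA from whole cultures.

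p53 is a transcription factor that is kept low in unstressed cells and accumulates after DNA damage and other stress. It binds response elements near its targets and raises genes for cell cycle arrest, apoptosis, repair and metabolism. MDM2 is a ubiquitin ligase that marks p53 for degradation and is itself a p53 target, which closes a feedback loop, whereas the related MDM4 mainly blocks the activity of p53. In cells with wild-type p53, such as HCT116, basal p53 keeps part of this programme transcribed without added damage.

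The response element is a repeat of a motif of 10 bases with purines, a central C, a pair of A or T bases, a central G and pyrimidines. The 3000 bases on each side of the start of the canonical transcript (GENCODE 44, GRCh38) were searched for 20 bases made of adjacent copies of this motif with at most 2 mismatches outside the fixed C and G bases. The consensus reads the same on both strands, so that 1 search covers both. A match was found for 4 of the 9 genes, and 4.66% of the 16233 windows of tested genes held one. The matches are shown because p53 binds elements of this kind near its targets. The central 4 bases of each motif are in capitals, and the sequence is on the strand of the gene. The CDKN1A match lay at -2265 from the start site, on chr6:36676449-36676468, overlapping an exon of another transcript. The MDM2 match lay at 746 from it, on chr12:68808923-68808942, in an intron. The BTG2 match lay upstream at -1877, on chr1:203303642-203303661, and the GDF15 match at -850, on chr19:18385308-18385327, upstream of the canonical transcript but within the annotated gene.
CDKN1A: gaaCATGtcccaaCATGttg
MDM2: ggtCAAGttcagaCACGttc
BTG2: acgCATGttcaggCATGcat
GDF15: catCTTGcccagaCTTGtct
A match describes only the sequence, and no match in a window says nothing about whether p53 acts on the gene.

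In GENCODE 44 on GRCh38, the regulators are MDM2 at chr12:68808177-68845544 (plus strand) and MDM4 at chr1:204516379-204558120 (plus strand). Of the targets, CDKN1A and SESN1 share a chromosome, with CDKN1A at chr6:36676460-36687337 (plus strand) and SESN1 at chr6:108984309-109094846 (minus strand). SESN2 and BTG2 lie on the chromosome of MDM4, SESN2 at chr1:28259518-28282491 (plus strand) and BTG2 at chr1:203305491-203309602 (plus strand). The others are BBC3 at chr19:47220822-47232766 (minus strand), GDF15 at chr19:18374731-18389176 (plus strand) and FDXR at chr17:74862497-74873031 (minus strand). The exonic length ran from 2087 bases for GDF15 to 11008 for MDM4.

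The libraries held 26792409 to 35477983 counts on genes. RBM47 had 1.91, 2.33 and 1.94 FPKM in the NC libraries (fragments per kilobase of transcript, scaled to the mapped fragments of the library, as deposited) and 131.3, 130.4 and 127.0 in those of RBM47-OE, as the labels state. Of 7 epithelial markers, EPCAM, CDH1, KRT8, KRT18 and CDX2 were at 4.06 FPKM or more in every library, while KRT20 and VIL1 stayed under 1 FPKM. The 7 summed to 960.8 to 1040.4 FPKM in the NC libraries and to 833.5 to 926.8 in RBM47-OE. KRT8 and KRT18 were lower in every RBM47-OE library than in any NC library, whereas EPCAM (75.15 to 78.27 FPKM, then 87.57 to 104.17) and CDH1 (12.93 to 13.45, then 14.51 to 14.85) were higher. Of 4 markers of fibroblasts, leukocytes and endothelium, 3 were listed, and their sum was 1.94 to 2.31 FPKM in the NC libraries and 1.92 to 2.41 in RBM47-OE. Changes between the groups followed the GC content of the exons across all genes. In 10 bins of tested genes by exonic GC content, the median log2 fold change ran from 0.38 in the lowest bin (median GC content 37.4%) to -0.23 in the highest (64.0%). Each comparison was therefore also fitted with an offset that removes the GC trend of every library (the GC offset). The origin of this trend was not tested, and the offset removes any change that follows GC content, technical or not.

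In the quasi-likelihood test of edgeR, RBM47-OE libraries held more of 1 of the 9 transcripts and less of 3 (Benjamini-Hochberg adjusted p-value under 0.05). MDM4 rose by 27.4%, CDKN1A fell by 19.6% and FDXR fell by 16.6%, and BTG2 fell by 0.32 on the log2 scale. MDM2, BBC3, GDF15, SESN1 and SESN2 did not pass. Among all tested genes 19.1% were called higher and 16.9% lower, so that the counts of 1 and 3 among 9 genes are read against a transcriptome in which many small changes passed. None of the 9 met the thresholds of the study, an unadjusted p-value under 0.01 with a fold change over 1.5, which 1.51% of tested genes met as higher and 0.873% as lower. At an unadjusted p-value under 0.05, edgeR's quasi-likelihood test gave 4 of the 9, as it did 44.4% of all tested genes. DESeq2, the tool of the study, also called none of the 9 at the thresholds of the study. MDM4, CDKN1A, BTG2 and FDXR were also the 4 genes whose groups did not overlap in CPM (counts scaled to library size), as was the case for 23.2% of tested genes in the higher direction and 23.4% in the lower.

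**Figure D1:**
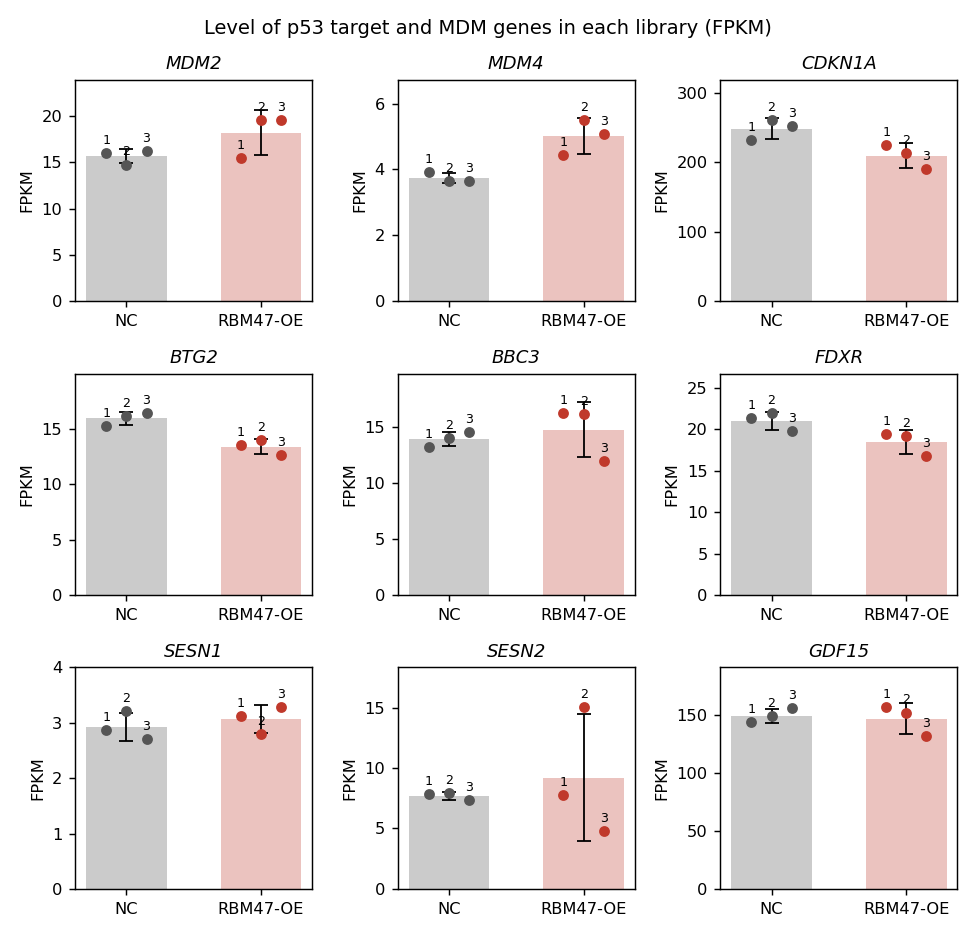
FPKM of the 9 genes in each library, with NC in grey and RBM47-OE in red. Bars are the mean of 3 libraries, error bars the SD and points the libraries, numbered by replicate. MDM4 lies higher and CDKN1A, BTG2 and FDXR lower in every RBM47-OE library, and SESN2 runs from 4.83 to 15.03 FPKM within RBM47-OE.

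The levels of these genes differed widely in the NC libraries on the FPKM scale, which corrects for length. CDKN1A stood highest with a mean of 248.3 ± 15.4 (SD, n = 3), which exceeds 99.2% of listed protein-coding genes, and GDF15 followed with 149.7 ± 6.06 (SD, n = 3). FDXR, BTG2, MDM2 and BBC3 came next with means of 21.1, 15.9, 15.6 and 13.9, and SESN2, MDM4 and SESN1 were lowest with 7.71, 3.74 and 2.93. Among neighbours in this order, BTG2 and MDM2 overlapped between libraries, and the others did not. In RBM47-OE, all neighbours from FDXR down to MDM4 overlapped, which includes SESN2 because of its spread.

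Both p53 inhibitors were measured with at least 1321 counts per library. MDM4 had 3.91, 3.66 and 3.64 FPKM in replicates 1, 2 and 3 of NC and 4.44, 5.51 and 5.09 in those of RBM47-OE, and every RBM47-OE library was above every NC library. Its log2 fold change was 0.35 (standard error, SE, 0.079, adjusted p = 0.0014 by edgeR), and the exact two-sided permutation test on FPKM gave p = 0.10, which is as low as groups of 3 can reach. MDM2 had 15.95, 14.74 and 16.16 FPKM in the NC libraries and 15.41, 19.57 and 19.55 in those of RBM47-OE. RBM47-OE replicate 1 lay within the NC range, and replicates 2 and 3 lay above it. The log2 fold change of MDM2 was 0.15 (SE 0.079, adjusted p = 0.16 by edgeR). Without RBM47-OE replicate 1 it was 0.25 (edgeR adjusted p = 0.0020), so that this library decides whether MDM2 passes.

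The exons of both genes are poor in GC, at 39.5% for MDM2 and 42.0% for MDM4, against a median of 49% for the genes tested. All genes in their GC bins had medians of 0.31 and 0.22. With the GC offset, MDM4 no longer passed at 0.12 (SE 0.058, adjusted p = 0.20 by edgeR), and MDM2 turned to -0.16 (SE 0.053, adjusted p = 0.044 by edgeR). The ratio of the 2 genes within a library does not depend on how libraries are scaled. Per kilobase of exon, MDM2 counts were 4.07, 4.02 and 4.44 times those of MDM4 in NC and 3.47, 3.55 and 3.84 times in RBM47-OE, without overlap. The log2 ratio was lower in RBM47-OE, at -0.21 (standard error 0.062; exact two-sided permutation test p = 0.10, the smallest possible), and the ratio of FPKM gave the same value. A gene on the other strand overlaps MDM2, and its counts came to 8.87% of those of MDM2. Since the use of strand in counting is not given in the sources used here, reads in the shared stretch cannot be assigned with certainty. Splicing of MDM2 was not analysed here.

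Of the targets that arrest the cell cycle, CDKN1A and BTG2 were both lower. CDKN1A encodes p21, the inhibitor of cyclin-dependent kinases through which p53 halts the cycle. It had 231.2, 261.1 and 252.4 FPKM in the NC libraries and 225.1, 212.6 and 190.8 in those of RBM47-OE, where all libraries were below the NC range, replicate 1 by the smallest margin. Its log2 fold change was -0.32 (SE 0.078, adjusted p = 0.0029 by edgeR). At an exonic GC content of 57.5% the median of its GC bin was -0.20, and with the GC offset the gene was at -0.12 (SE 0.058, adjusted p = 0.19 by edgeR).

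BTG2, an antiproliferative protein that recruits mRNA deadenylases, had 15.26, 16.14 and 16.36 FPKM in the NC libraries and 13.55, 13.94 and 12.63 in those of RBM47-OE. These groups did not overlap, and the SD of log2 CPM between RBM47-OE libraries was 0.068, below the median of 0.113 over genes with a mean of 10 CPM or more. The log2 fold change was -0.32 (SE 0.077, adjusted p = 0.0022 by edgeR). BTG2 lies near the middle of the GC range at 50.6%, where the median of the bin was -0.09. With the GC offset it still passed as lower, at -0.24 (SE 0.060, adjusted p = 0.011 by edgeR), and among the 9 genes it was the only one called in the same direction by both fits. Over all 20 alternatives its log2 fold change stayed between -0.35 and -0.24, with an adjusted p between 0.00035 and 0.043.

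FDXR and BBC3 stand for other arms of the response. FDXR, the mitochondrial reductase that passes electrons to ferredoxin, had 21.38, 21.92 and 19.84 FPKM in the NC libraries and 19.40, 19.16 and 16.75 in those of RBM47-OE. The groups were separated by the narrow gap between NC replicate 3 and RBM47-OE replicate 1. Its log2 fold change was -0.26 (SE 0.076, adjusted p = 0.0088 by edgeR), which with the GC offset became -0.05 (SE 0.057, adjusted p = 0.64 by edgeR) at an exonic GC content of 60.4%. FDXR did not pass without NC replicate 1, NC replicate 2 or RBM47-OE replicate 3, at -0.25, -0.23 and -0.20 (adjusted p = 0.050, 0.072 and 0.051 by edgeR). BBC3 encodes PUMA, a BH3-only protein that binds BCL2 and its relatives and sets off apoptosis. It had 13.21, 14 and 14.5 FPKM in the NC libraries and 16.16, 16.10 and 11.89 in those of RBM47-OE, so that replicates 1 and 2 were above and replicate 3 below all NC libraries. The log2 fold change was 0.01 (SE 0.093, adjusted p = 0.94 by edgeR), with an approximate 95% interval from -0.17 to 0.19. BBC3 had the highest exonic GC content of the 9, 64.4%, and with the GC offset it was called higher, at 0.24 (SE 0.073, adjusted p = 0.032 by edgeR).

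GDF15, a secreted cytokine of the TGF-beta family that rises under many kinds of stress, had 144.0, 149.1 and 156.0 FPKM in the NC libraries and 156.8, 152.3 and 131.9 in those of RBM47-OE. Its groups overlapped, with replicate 3 of RBM47-OE lowest of all 6 libraries. The log2 fold change was -0.10 (SE 0.076, adjusted p = 0.34 by edgeR), and 0.12 with the GC offset (SE 0.055, adjusted p = 0.18 by edgeR). Without RBM47-OE replicate 1, GDF15 passed as lower at -0.16 (edgeR adjusted p = 0.045).

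Under the GC offset 6.1% of tested genes were called higher and 8.54% lower. Among the 9 genes BBC3 was then called higher and MDM2 and BTG2 lower, and 6 were not called. Without RBM47-OE replicate 1 in the same fit, MDM2 and BBC3 no longer passed, BTG2 was at -0.25 (edgeR adjusted p = 0.012) and SESN1 passed as lower at -0.36 (edgeR adjusted p = 0.026).

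**Figure D2:**
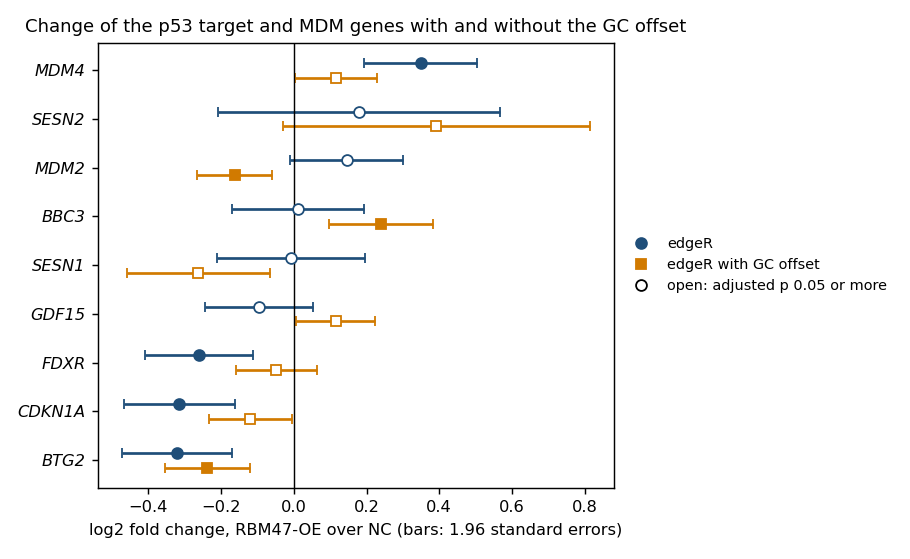
Log2 fold change of RBM47-OE over NC for the 9 genes from edgeR (blue circles) and from edgeR with the GC offset (orange squares). Bars are the approximate 95% interval from the standard error, and filled symbols mark an adjusted p under 0.05. BTG2 is filled on the same side in both fits, at -0.32 and -0.24, whereas MDM2 moves from 0.15 to -0.16.

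**Figure D3:**
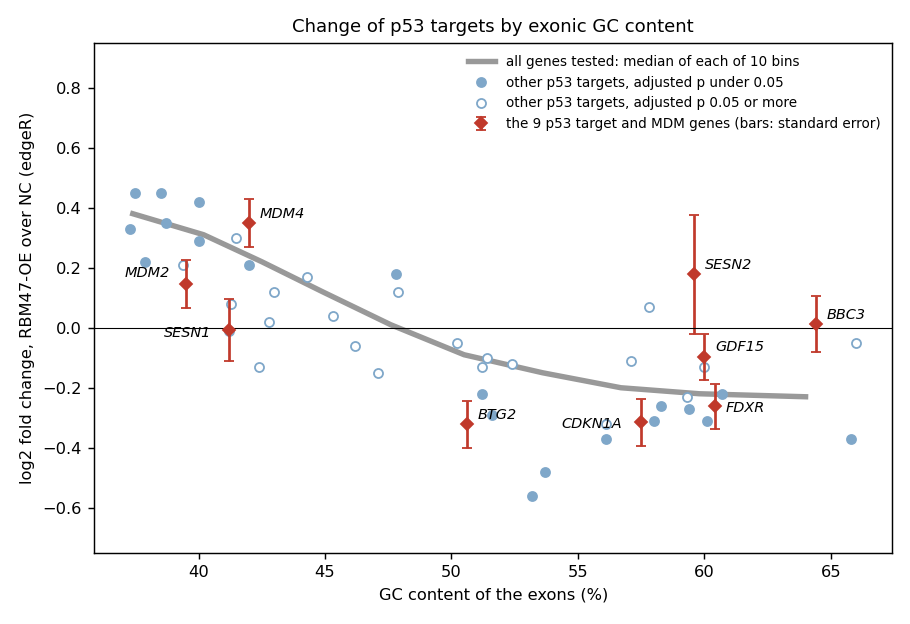
Log2 fold change against the exonic GC content in percent for the 9 genes (red, with standard errors) and 42 other p53 targets (blue, filled at an adjusted p under 0.05). The grey line joins the medians of 10 bins of all tested genes, which fall from 0.38 to -0.23.

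The sestrins, stress-induced proteins that restrain mTORC1, behaved unlike each other. SESN1 had 2.87, 3.21 and 2.71 FPKM in the NC libraries and 3.13, 2.79 and 3.28 in those of RBM47-OE, on 451 to 658 counts, and its groups overlapped almost fully. Its log2 fold change was -0.01 (SE 0.10, adjusted p = 0.96 by edgeR). With the GC offset it was -0.26 (SE 0.10, adjusted p = 0.086 by edgeR), at an exonic GC content of 41.2%.

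SESN2 had 7.86, 7.92 and 7.35 FPKM in the NC libraries and 7.76, 15.03 and 4.83 in those of RBM47-OE. The NC libraries lay within 1.08-fold of each other in CPM, and the RBM47-OE libraries within 3.03-fold, with replicate 1 at the NC level, replicate 2 far above it and replicate 3 below it. These values rest on 1002, 1801 and 537 counts. The SD of log2 CPM was 0.06 in NC and 0.79 in RBM47-OE, which ranks 4 in size among the 9800 genes with a mean of 10 CPM or more, for which the median was 0.113. The log2 fold change of 0.18 (SE 0.20, adjusted p = 0.52 by edgeR) is therefore a mean over libraries that went opposite ways. It was 0.39 with the GC offset (SE 0.216, adjusted p = 0.25 by edgeR), at an exonic GC content of 59.6%. Without RBM47-OE replicate 2 it was -0.34 (edgeR adjusted p = 0.083), and without replicate 3 it was 0.48 (edgeR adjusted p = 0.017). The ratio of SESN1 to SESN2 counts per kilobase of exon was 0.257, 0.285 and 0.259 in NC and 0.283, 0.131 and 0.478 in RBM47-OE (log2 difference -0.04, standard error 0.55; exact two-sided permutation test p = 0.90).

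SESN2 is known to be induced by ATF4, the transcription factor of the integrated stress response, as well as by p53. Genes of that response were therefore listed after the SESN2 values had been seen, and their values are given without a test. In the order of RBM47-OE replicates 1, 2 and 3, CHAC1, which degrades glutathione, was at 9.1, 52.5 and 3.9 CPM, against 7.2 to 8.5 in NC. DDIT3, which encodes the stress factor CHOP, was at 31.9, 74.8 and 14.7 CPM, against 18.6 to 21.8 in NC. ATF4 itself was at 347.2, 451.9 and 229.6 CPM, against 371.1 to 422.1. For each of these genes, replicate 2 was highest and replicate 3 lowest of the 6 libraries, as for SESN2. Ordered by the log2 difference between RBM47-OE replicates 2 and 3, CHAC1 came at rank 1 of the 9800 genes, DDIT3 at 2, SESN2 at 4 (1.57), ATF3 at 5 and ATF4 at 10 (0.98). Genes that were not listed shared these ranks, with TSC22D3 at 3 (1.68), JDP2 at 6, EGR1 at 7, IFRD1 at 8 and ARRDC4 at 9. GADD45B came at 11, CTC-250I14.6 at 13 and FOS at 15, and these were not listed either. Whether the genes that were not listed belong to a stress response was not tested. PPP1R15A, STC2, SLC7A11 and TRIB3 were among the first 26. ASNS, which makes asparagine and is also an ATF4 target, did not share the pattern, with 177.8, 194.7 and 220.9 CPM in RBM47-OE against 113.0 to 125.9 in NC.

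In the same order of 9800 genes, BBC3 came at rank 115, GDF15 at 972, CDKN1A at 1588 and MDM2 at 5124. Among other p53 targets, ATF3 was at 36.8, 68.7 and 23.0 CPM in RBM47-OE, against 41.6 to 46.2 in NC. GADD45A was at 90.6, 120.5 and 65.7 CPM, against 85.5 to 89.0. Not all such targets shared this order. PMAIP1 was highest in replicate 2, but replicate 3 was above NC, at 48.9, 76.4 and 53.4 CPM against 46.7 to 50.5. TNFRSF10B was at 150.0, 143.7 and 145.2 CPM, against 162.3 to 179.5. What set RBM47-OE replicates 2 and 3 apart in SESN2, ATF3, GADD45A and the stress response genes was not tested.

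**Figure D4:**
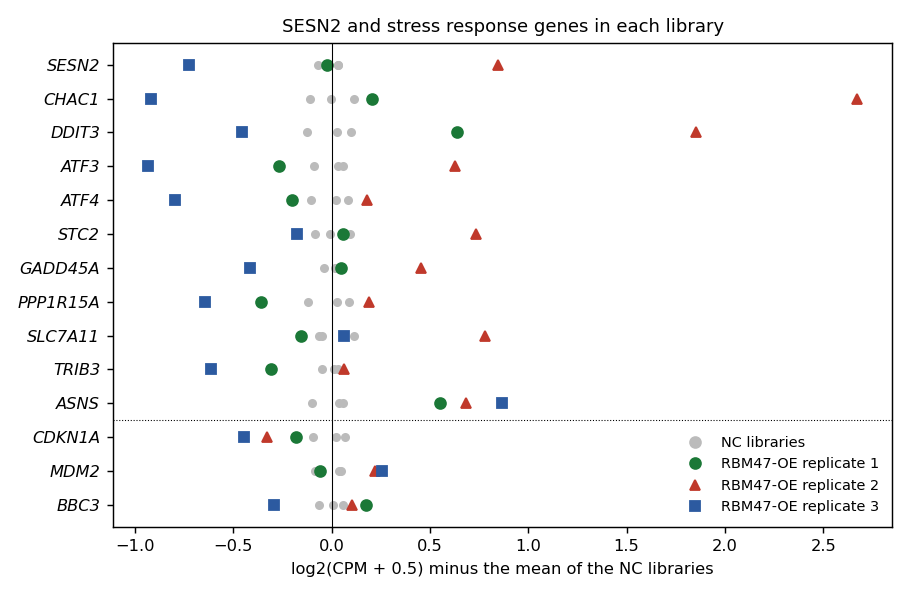
Difference of log2(CPM + 0.5) from the mean of the NC libraries for SESN2 and 10 stress response genes, with 3 of the p53 target and MDM genes under the dotted line. Grey points are NC libraries, and green circles, red triangles and blue squares are RBM47-OE replicates 1, 2 and 3. SESN2, CHAC1, DDIT3, ATF3 and ATF4 have replicate 2 at the right and replicate 3 at the left, which CDKN1A and MDM2 do not.

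Beyond these genes, 45 other established p53 targets were listed, of which 42 passed the filter. EDA2R, SPATA18 and TRIM22 did not, with at most 2, 4 and 11 counts in any library. At an edgeR adjusted p under 0.05, 9 were higher, 11 lower and 22 did not pass. Over all tested genes, 19.1% were higher and 16.9% lower. The median log2 fold change of these targets was -0.06, beside 0.000 over all genes. Without NC replicate 2, 5 were higher and 4 lower. Leaving out NC replicate 1, NC replicate 3 or RBM47-OE replicate 2 also gave 5 higher, and leaving out NC replicate 3 or RBM47-OE replicate 3 gave 7 lower. Scaling by library totals gave 6 lower targets, and limma on log2(FPKM + 1) gave 3. In the fit of all 6 libraries none met the thresholds of the study. An unadjusted p under 0.05 by edgeR was reached by 23 of these targets, and by 44.4% of all tested genes. The largest falls were those of AEN, an apoptosis-enhancing nuclease, at -0.56 (edgeR adjusted p = 2.7e-05), and of SERTAD1, a cyclin-dependent kinase regulator, at -0.48 (edgeR adjusted p = 0.00011). TP53I3, PIDD1, TRAF4 and PLK3 were lower by smaller amounts, from -0.37 to -0.31. RRM2B, the p53-inducible ribonucleotide reductase subunit, and KITLG, the ligand of the KIT receptor, each rose by 0.45 on the log2 scale (edgeR adjusted p = 0.00011 and 0.00013). ZMAT3, an RNA-binding p53 effector, rose by 0.42, ANKRA2 by 0.35, CCNG1, which encodes cyclin G1, by 0.33 and PMAIP1, which encodes the BH3-only protein NOXA, by 0.29. The groups of PMAIP1 overlapped, with 48.9, 76.4 and 53.4 CPM in RBM47-OE replicates 1, 2 and 3, against 46.7 to 50.5 in NC.

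The direction of these targets followed their GC content. The 9 higher targets had exonic GC contents of 37.3% to 47.8%, and the 11 lower ones of 51.2% to 65.8%, so that the ranges did not overlap. With the GC offset, 2 targets were called higher and 5 lower, beside 6.1% and 8.54% of all tested genes. AEN at -0.41 and SERTAD1 at -0.33 remained lower (edgeR adjusted p = 0.00013 and 0.0013). TP53I3, PIDD1, TRAF4 and PLK3 lay between -0.19 and -0.10 with the offset and did not pass. The other lower calls were PLK2, RPS27L and PPM1D, at -0.35, -0.26 and -0.19. Without the offset these were at -0.13, -0.01 and 0.02 and did not pass. The higher calls were EPS8L2 at 0.19 and CMBL at 0.17, of which only CMBL also passed without the offset. With the offset, RRM2B, KITLG, ZMAT3, ANKRA2, CCNG1 and PMAIP1 lay between -0.02 and 0.13 and did not pass. Of 19 regulators and cofactors of p53, all tested, 4 passed as higher and 3 as lower (median 0.02). Over all tested genes, 19.1% passed as higher and 16.9% as lower. ATR, ATM and CHEK1, kinases that signal DNA damage to p53, were higher by 0.40, 0.37 and 0.35, and TP53BP1, which binds chromatin at DNA breaks, by 0.26. DAXX, a p53-binding histone chaperone, was at -0.32, CDKN2A, which encodes the MDM2 inhibitor p14ARF besides p16, at -0.24 and the acetyltransferase gene CREBBP at -0.22. With the GC offset those 7 did not pass, and no regulator was called higher by edgeR's quasi-likelihood test. In that fit 3 were called lower, RPL5, EP300 and PPM1D, at -0.30, -0.21 and -0.19. Without the offset these were at -0.01, -0.18 and 0.02 and did not pass. PPM1D stands on both lists and is counted in each. At an unadjusted p under 0.05 the fit with the GC offset gave 8 of the 19, and 27.8% of all tested genes. The counts without the offset moved when a library was left out, as did those over all genes. Leaving out NC replicate 2 gave 2 higher and 1 lower regulators. Over all genes it gave 2090 higher and 1675 lower, against 3100 and 2740 with all libraries. Leaving out NC replicate 1 or RBM47-OE replicate 3 gave 1 lower regulator, and leaving out RBM47-OE replicate 1 gave 5 lower. A correction for exonic length gave 1 higher, library totals gave 1 lower, and limma on log2(FPKM + 1) gave 2 higher and 1 lower.

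Downstream of p21, cell cycle genes are repressed through the DREAM complex, and 12 of these were listed. By the edgeR fit, 6 passed as lower and 3 as higher and 3 did not pass, and the median log2 fold change was -0.21. In the same fit 16.9% of all tested genes passed as lower and 19.1% as higher. PLK1, a mitotic kinase, went from 147.2, 155.2 and 148.8 CPM in NC to 114.1, 98.4 and 93.8 in RBM47-OE, with a log2 fold change of -0.56 (SE 0.076, adjusted p = 2.7e-05 by edgeR). MYBL2 and FOXM1, transcription factors of the late cell cycle, were at -0.44 and -0.41, the mitotic cyclins CCNB1 and CCNB2 at -0.37 and -0.28 and the apoptosis inhibitor BIRC5 at -0.28. These 6 were also lower with the GC offset, at -0.20 to -0.55 (edgeR adjusted p of 0.028 or less). That fit called 8.54% of all tested genes lower and 6.1% higher. TOP2A, CDK1 and BUB1 rose by 0.49, 0.39 and 0.27, and with the offset only TOP2A passed, at 0.16 (edgeR adjusted p = 0.045).

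**Figure D5:**
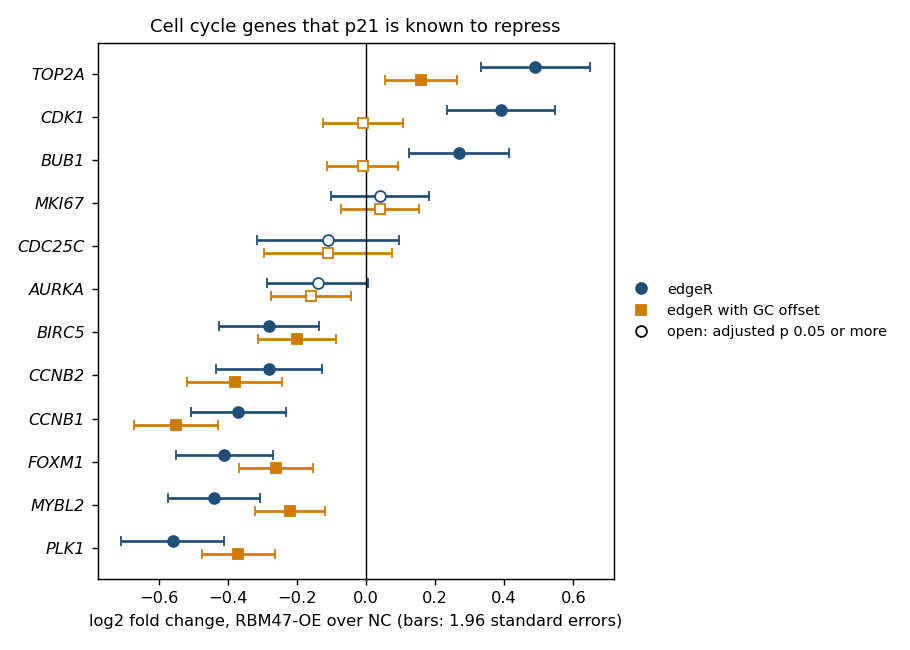
Log2 fold change of RBM47-OE over NC for 12 cell cycle genes that p21 is known to repress, from edgeR (blue circles) and with the GC offset (orange squares). Bars are the approximate 95% interval from the standard error, and filled symbols mark an adjusted p under 0.05. PLK1, MYBL2, FOXM1, CCNB1, CCNB2 and BIRC5 are filled below 0 in both fits.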

How the data were processed

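Reads were trimmed by the authors with FASTX-Toolkit and mapped on GRCh38 using HISAT2, and uniquely mapped reads gave the deposited raw counts per gene. From these reads the authors also calculated FPKM. The counting tool, annotation release and strand setting are not given in the sources used here. The 9 genes and all lists were chosen with earlier results of these data known. All 6 libraries were used.

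Counts were tested with edgeR 4.0.16 in R 4.3.3 (filterByExpr with minimum count 10 and minimum total 15, TMM, quasi-likelihood test, condition as the only term), with p-values adjusted over all genes tested. The standard error is the log2 fold change divided by the root of F. Exonic GC content and length came from GENCODE 44, and the GC offset is a loess curve (span 0.3) per library. From each list the text names at most 6 called genes per direction by size of change; genes called with the GC offset only, untested genes and stress response genes were named after their values were seen. Alternatives were DESeq2 1.42.0, limma 3.58.1 on log2(FPKM + 1) and log2(FPKM + 0.1) (a mean FPKM of 0.1 or more, or no filter), other scalings and filters, length and GC offsets, the replicate number as a block, and each library left out. On simulated counts without a GC trend, edgeR recovered 200 of 200 changed genes among 16073 and called 11 unchanged ones. With a simulated GC trend it called 4954 unchanged genes among 16045, and 12 with the GC offset. The transcript of p53 itself was not analysed here.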

Additional observations from a re-analysis of the deposited data

How the results depend on the processing

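BTG2 kept its direction and its call under all 20 alternatives. With the GC offset, alone, with the replicate block and without RBM47-OE replicate 1 (the last chosen after seeing the data), the log2 fold changes were -0.16, -0.16 and -0.13 for MDM2, 0.12, 0.12 and 0.13 for MDM4, -0.12, -0.12 and -0.15 for CDKN1A, 0.12, 0.11 and 0.0995 for GDF15 and -0.048, -0.048 and -0.052 for FDXR. BBC3 passed with the GC offset alone and with the block (0.24 and 0.23), and SESN1 without replicate 1 (-0.36). With library totals SESN1 was at 0.053. limma on log2(FPKM + 1), log2(FPKM + 0.1) and log2(FPKM + 1) without a filter gave 0.0495, 0.064 and 0.0495 for SESN1 and, without a call, -0.18, -0.19 and -0.18 for FDXR. CDKN1A did not pass in the last of these, at -0.25. Apart from libraries left out, the other alternatives changed no call of the 9 genes; the cause of each change was not tested.

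With 1 library left out, the log2 fold change ranged from 0.086 to 0.25 for MDM2, -0.073 to 0.14 for BBC3, -0.16 to -0.026 for GDF15, -0.063 to 0.072 for SESN1, -0.34 to 0.48 for SESN2 and -0.31 to -0.20 for FDXR, which did not pass without NC replicate 1, NC replicate 2 or RBM47-OE replicate 3. The log2 difference of the SESN1 to SESN2 ratio ranged from -0.47 to 0.46.

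The deviations of same-numbered libraries from their group means were hardly correlated (-0.06, -0.01 and -0.02). With 3 libraries per group this cannot show whether same-numbered libraries were prepared together, and the methods name no pairing. The replicate block turned BBC3 to -0.0006 and moved SESN2 to 0.053, without changing a call of the 9 genes. Added to the GC offset, it ended the call of MDM2 (edgeR adjusted p = 0.069, against 0.044 without it) and changed no other call of the 9. SESN2 was at 0.28 with the GC offset and block and at 0.53 with the GC offset without RBM47-OE replicate 1, neither called.

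Over all genes at an adjusted p under 0.05, the GC offset gave 992 higher and 1389 lower genes, with the block 1018 and 1381, and without RBM47-OE replicate 1 1102 and 1571. limma on log2(FPKM + 1) gave 1586 lower genes, on log2(FPKM + 0.1) 1599, and without a filter 1410 higher and 908 lower. At the thresholds of the study, library totals gave 479 higher and 79 lower, the GC offset 81 and 92, and limma on log2(FPKM + 1) 43 and 28, or 42 and 27 without a filter. The GC offset with the block gave 84 higher, and without RBM47-OE replicate 1 91 higher. With 1 library left out, 1675 to 3508 genes were lower at an adjusted p under 0.05, and 143 to 639 higher at the thresholds of the study.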
